A study of Homo sapiens with 7 samples.

Results

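FOXA1 binding was compared between LNCaP cells given GSK2879552 together with PFI-2 and LNCaP cells given GSK2879552 alone. LNCaP is an established, androgen-sensitive human prostate cancer line. GSK2879552 inhibits the lysine demethylase LSD1 (KDM1A), and PFI-2 inhibits the lysine methyltransferase SETD7. Both groups were treated for 4 hours, grown in serum-containing medium and mapped by chromatin immunoprecipitation sequencing with an anti-FOXA1 antibody, with 1 library per group. No dose was stated in the labels. The treatment field of the combination sample leaves PFI-2 optional, and the sample was taken as the combination from its title. The whole series holds 7 libraries and 467188 deposited peaks. The other libraries are FOXA1 in LNCaP with DMSO, the solvent control, and 4 maps of the prostate cancer line CWR22-Rv1. These are FOXA1 in cells labelled vehicle, after a control short hairpin (shCTL) and after one targeting SETD7 (shSETD7), and SETD7 in cells labelled vehicle. The peak names inside the vehicle FOXA1 list carry the tag siNTC in place of a vehicle. A single line, 1 library per group, stands for each treatment.

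The regions described are the authors' own FOXA1 peaks on chromosomes 1 to 22 and X of build hg19, 63866 with GSK2879552 and 83352 with the combination. A peak sharing at least 1 bp with any peak of the opposite list was called kept. A combination peak with no GSK2879552 peak within 1 kb was called gained, and a GSK2879552 peak with no combination peak within 1 kb was called lost. These words describe presence in the lists. With 1 library per group no difference between the treatments could be tested, and the ranges in parentheses after percentages are 95% Wilson intervals, which hold counting error alone. Both lists were also compared at equal size, with the combination list shortened to its 64217 highest scores before the chromosomes were selected.

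FOXA1 is a forkhead pioneer transcription factor, a protein that can bind its sites in closed chromatin and open them for other factors. In luminal prostate cells it sits at enhancers beside the androgen receptor and helps to set which of them the receptor can use. Methyl groups on lysines are added by enzymes such as SETD7 and removed by enzymes such as LSD1, on histones and on other proteins. The title of the series names FOXA1 as a protein that SETD7 methylates. Adding PFI-2 to GSK2879552 therefore asks how FOXA1 binding under LSD1 inhibition differs when the methylating enzyme is inhibited too.

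The GSK2879552 list stood apart from the other LNCaP lists in length and in peak width. Its median peak width was 263 bp, against 333 bp with the combination and 333 bp with DMSO. Its peaks covered 17.8 Mb in all, against 29.4 Mb with the combination and 28.1 Mb with DMSO. Read depth is unknown from peak lists, so a lower depth or enrichment of this library and a treatment effect cannot be told apart. Scores ran from 48 to 3130 with GSK2879552 and from 47 to 3780 with the combination. They are the authors' own values per peak and were used only to rank peaks within a list. Genes are not named because no hg19 annotation was used here.

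Most FOXA1 sites of GSK2879552-treated cells were also found when PFI-2 was added. Of the 63866 GSK2879552 peaks, 58804 were kept in the combination, or 92.1% (91.9 to 92.3). A further 577 lay within 1 kb of a combination peak, and 4485 were lost, or 7.02% (6.83 to 7.22). In the other direction, 58312 of the 83352 combination peaks were kept, or 70.0% (69.6 to 70.3), and 1716 lay within 1 kb. The remaining 23324 combination peaks were gained, or 28% (27.7 to 28.3). The 1 kb limit cut through few peaks: 736 combination peaks lay over 500 bp and up to 1 kb from a GSK2879552 peak, and 564 lay over 1 kb and up to 1.5 kb from one.

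Lists of equal length were also compared, in which gained and lost counts come out close to each other by construction, since nearly all kept peaks match 1 to 1. In these lists, 10284 of 63873 combination peaks were gained, or 16.1% (15.8 to 16.4). Of the 63866 GSK2879552 peaks, 9732 were lost from the shortened combination list, or 15.2% (14.96 to 15.5). List length depends on depth as well as on binding, so neither pair of counts can be read as the number of sites that PFI-2 affected.

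Gained and lost sites were the weak sites of their lists. None of the 8336 combination peaks in the highest score decile was gained. Taking 3 peaks as the limit that a finding of 0 allows, the share there could be as high as 0.0360%, and the Wilson upper bound is 0.0461%. The gained share was 0.228% in decile 9, 14.5% in decile 6, 27.3% in decile 5 and 73.9% in the lowest decile. The lower-scoring 50% of the combination list held 92.0% of the gained peaks (91.7 to 92.4). Among GSK2879552 peaks, the 2 highest deciles held no lost peak and decile 8 held 1. The lost share was 1.36% in decile 6 and 23.7% in the lowest decile. In equal-sized lists the shares by decile ran close together, from 49.96% gained and 48.1% lost in the lowest decile to 5.54% and 4.15% in decile 6.

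**Figure D1:**
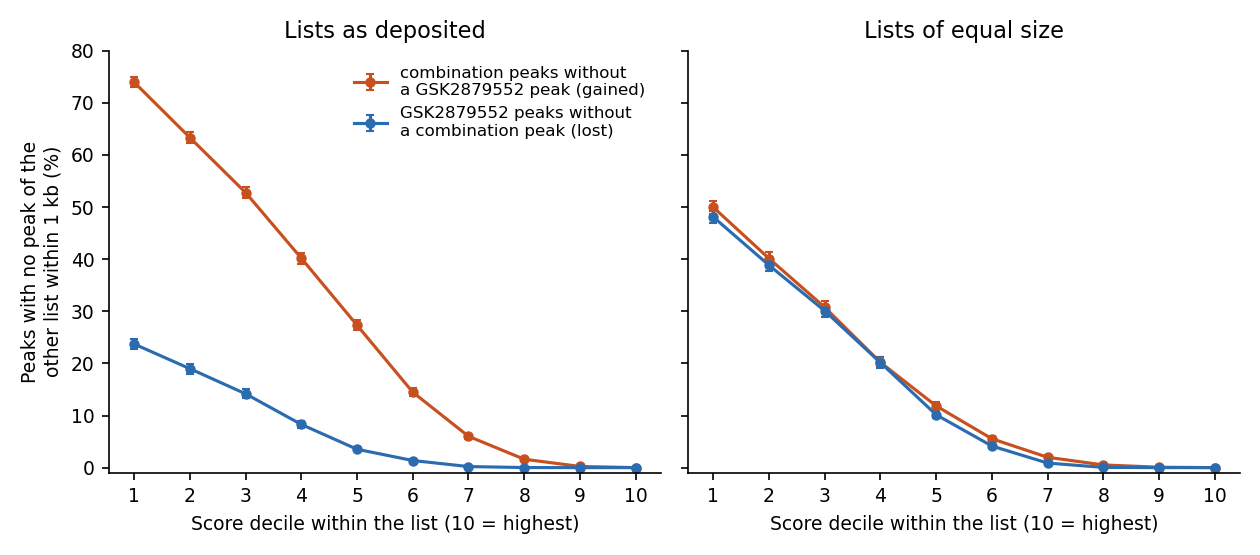
The percentage of peaks with no peak of the other list within 1 kb is plotted against the score decile within the list (10 is the highest), for combination peaks (gained) and GSK2879552 peaks (lost), with 95% Wilson intervals. In the lists as deposited the lowest decile gives 73.9% gained and 23.7% lost, in equal-sized lists 49.96% and 48.1%, and in every panel the highest decile gives 0.

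The gained site with the highest score was chr5:165235228-165235722, 495 bp wide with a combination score of 814. It stood at percentile 88.9 of the combination list, and the nearest GSK2879552 peak was 21762 bp away. The next were chr3:25237281-25237670 with a score of 739 and chr2:188994332-188994805 with a score of 735. A further 2 gained sites of high score lay on chromosome 3, at chr3:96431462-96432263 (802 bp, score 684) and chr3:159588505-159588948 (score 659). The site at chr5:23590535-23591015 (score 638) had no GSK2879552 peak for 95447 bp. At chr3:24002153-24002555 (score 622) the nearest one was 1006 bp away, just past the limit. All 10 gained sites of highest score were also DMSO peaks, at percentiles 76.6 to 88.4 of the DMSO list. The highest was that at chr3:96431462-96432263, with a DMSO score of 708. Of these 10 sites, 7 were FOXA1 peaks in vehicle CWR22-Rv1 cells, 2 in shCTL cells and none in shSETD7 cells. For scale, 99.2% of all gained and 99.8% of all kept combination peaks of score decile 7 were DMSO peaks. Peaks of that strength were thus nearly all DMSO peaks, gained or kept. Of the gained peaks of decile 7, 28.9% were in the vehicle, 29.9% in the shCTL and 9.18% in the shSETD7 list. The rule that chose the 10 sites used the combination and GSK2879552 lists and not the DMSO list.

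Gained sites were in large part also sites of DMSO-treated LNCaP cells. Of the 23324 gained peaks, 14547 overlapped a DMSO peak, or 62.4% (61.7 to 63.0), against 94.5% of the kept combination peaks (94.3 to 94.6). The DMSO list was not used to choose the gained peaks. However, kept peaks had been called in both treatment lists and gained peaks in the combination list alone. A lower DMSO share of gained peaks could follow from that choice, also at equal score, and its part was not tested. Since kept peaks score higher, peaks of the same decile were compared. In the lowest decile 43.0% of the gained and 63.3% of the kept peaks were found with DMSO, in decile 4 75.5% and 87.2%, and in decile 6 96.0% and 98.4%. As scores rose both shares neared their upper limit, which narrows any gap between them in points. Where a gained peak met a DMSO peak, the DMSO peak stood at a median percentile of 26.4 of its list, against 65.0 for kept peaks. With the combination and DMSO lists both shortened, 60.5% of the 10284 gained peaks (59.6 to 61.5) were found with DMSO. With the combination list shortened and the DMSO list left whole, a setting chosen after seeing the data, 8232 were, or 80.05% (79.3 to 80.8). The share of kept combination peaks was then 97.0%. Gained and kept peaks of the same decile had similar widths, with medians of 227 and 235 bp in the lowest decile and 335 and 334 bp in decile 6. A group of 5806 gained peaks, or 24.9% (24.3 to 25.4), was found neither with DMSO nor in any CWR22-Rv1 FOXA1 list, against 2.59% of the kept combination peaks. With the combination list shortened and the other lists whole, this group was 1337 of 10284 gained peaks, or 13% (12.4 to 13.7), against 1.34% of the kept ones. Kept peaks score higher, and the shares of this group were not matched by decile.

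Gained sites were less often FOXA1 sites of the other line than kept sites were. Of the gained peaks 18.4% were vehicle CWR22-Rv1 FOXA1 peaks, 27.5% shCTL and 12.4% shSETD7 peaks. The shares for kept combination peaks were 47.4%, 55.2% and 33.8%. All 3 CWR22-Rv1 lists held 5.70% of the gained and 25.8% of the kept peaks, and 65.1% of the gained peaks were in none. The difference held within score deciles, under the same limit that kept peaks had been called in both treatment lists. In decile 5, 21.1% of the gained peaks (19.4 to 22.8) and 36.5% of the kept peaks (35.3 to 37.7) were in the vehicle CWR22-Rv1 list. SETD7 peaks of vehicle CWR22-Rv1 cells overlapped 66 gained peaks, or 0.283% (0.222 to 0.360), and 1.13% of the kept combination peaks.

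The strongest lost sites stood at lower percentiles of their own list than the strongest gained sites did. A lost peak had to be absent from the longer list and a gained peak from the shorter one. List length alone can therefore set these percentiles apart. The lost site with the highest score was chr20:58872792-58873033, 242 bp wide with a GSK2879552 score of 360, at percentile 71.6 of that list. It was followed by chr9:85214549-85214795 (score 330) and chr12:57360123-57360362 (score 318). The site at chr9:85214549-85214795 was in no other list of the series, while that at chr14:60418659-60418918 (score 307) was in all 3 CWR22-Rv1 FOXA1 lists and not with DMSO. The site at chr2:133023106-133023391 (score 269) lay on a SETD7 peak of CWR22-Rv1 and was in the vehicle and shSETD7 FOXA1 lists. Of the 10 lost sites of highest score 4 had a DMSO peak, at percentiles 6.52 to 38.9, and 6 were in a CWR22-Rv1 FOXA1 list. Over all lost peaks the shares were near these, at 35.3% with DMSO and 55.4% in any CWR22-Rv1 FOXA1 list.

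Lost sites were less often DMSO sites than kept sites were. Of the 4485 lost peaks, 1585 overlapped a DMSO peak, or 35.3% (34.0 to 36.8), against 94.4% of the kept GSK2879552 peaks (94.3 to 94.6). Kept peaks had been called in both treatment lists and lost peaks in the GSK2879552 list alone, so a gap could follow from that choice. Its part was not tested. The gap was also present within score deciles. In decile 4, 42.9% of the lost and 91.4% of the kept peaks were found with DMSO, and in decile 6 56.3% and 97.5%. When the combination list was shortened and the DMSO list left whole, 5194 of 9732 lost peaks were found with DMSO, or 53.4% (52.4 to 54.4). That setting was chosen after seeing the data. With the DMSO list shortened as well, the share was 30.6% (29.7 to 31.5). Lost peaks were narrower than kept GSK2879552 peaks of the same decile, with medians of 184 and 196 bp in the lowest decile and 224 and 245 bp in decile 5. The narrowest peak of the GSK2879552 list was 178 bp, so the lowest decile lay near that floor. Lost peaks were vehicle CWR22-Rv1 FOXA1 peaks in 38.0% of cases, shCTL peaks in 43.1% and shSETD7 peaks in 35.7%. The kept GSK2879552 peaks, which score higher, had shares of 47.2%, 55.2% and 33.6%, so over all scores the lost peaks were lower in the first 2 lists. Within score deciles the direction differed. In decile 4 the vehicle list held 45.4% of the lost peaks (41.2 to 49.6) and 34.7% of the kept ones (33.5 to 36.0). The shSETD7 list held 42.9% (38.8 to 47.2) and 25.3% (24.2 to 26.4) there. In the vehicle and shSETD7 lists the lost share was above the kept share in each of deciles 1 to 6. In the shCTL list it was below it in decile 1, at 38.4% (36.0 to 40.9) against 39.3% (37.9 to 40.7). The same held in decile 6, at 48.3% (38.1 to 58.6) against 51.7% (50.5 to 52.9). The intervals overlap in both deciles, and in the deciles between them the lost share was above the kept share.

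A group of 1555 lost peaks, or 34.7% (33.3 to 36.1), was in at least 1 CWR22-Rv1 FOXA1 list but not with DMSO. That pattern was found in 12.7% of the gained and 2.96% of the kept GSK2879552 peaks, and in 24.6% of the peaks lost from the shortened combination list. Kept peaks score higher, and these shares were not matched by decile. SETD7 peaks overlapped 175 lost peaks, or 3.90% (3.37 to 4.51), against 1.06% of the kept GSK2879552 peaks (0.977 to 1.14). In decile 5 the shares were 8% of 225 lost peaks (5.12 to 12.3) and 1.08% of 6119 kept peaks. SETD7 was mapped in the other line, in cells labelled vehicle, and no artefact-prone regions were removed. How far such regions account for peaks shared across lines and antibodies was not tested.

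**Figure D2:**
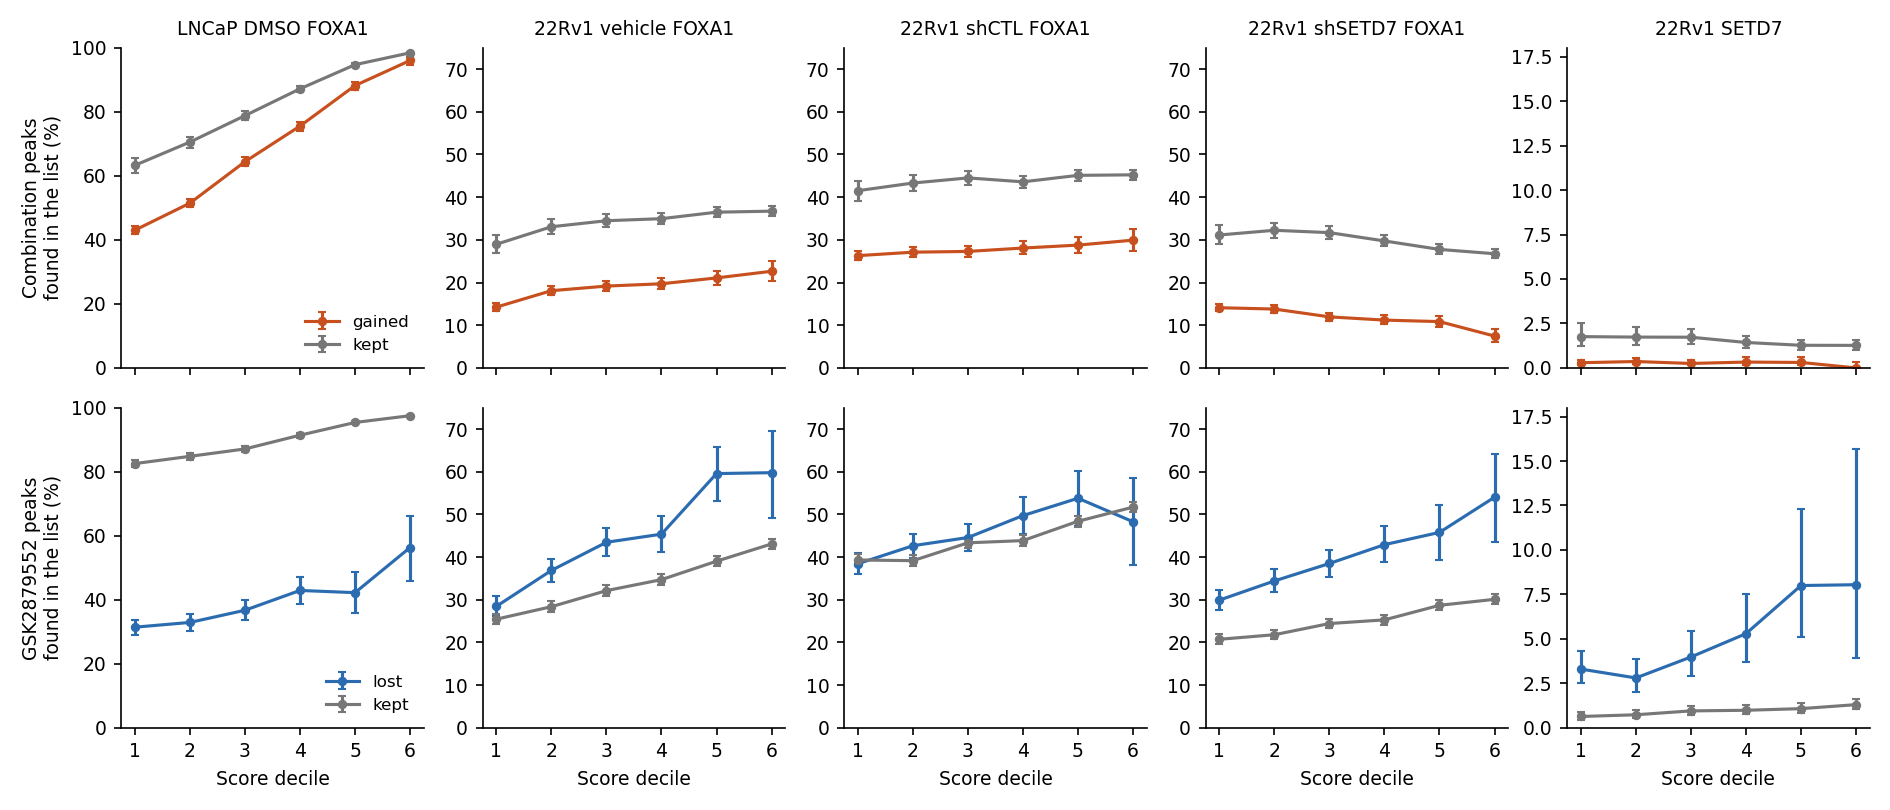
Each panel plots the percentage of peaks found in another list (columns) against the score decile in the peak's own list, with 95% Wilson intervals; gained against kept combination peaks are in the upper row and lost against kept GSK2879552 peaks in the lower row, for deciles 1 to 6. Gained peaks lie below kept ones in all 5 lists. Lost peaks lie far below kept ones with DMSO and above them in the vehicle FOXA1, shSETD7 FOXA1 and SETD7 lists. In the shCTL list lost peaks lie on both sides of kept ones, with overlapping intervals where they lie below.

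The ranks of sites kept in both treatments differed least among the strongest sites. Of the kept sites, 57769 were matched 1 to 1. Their scores were ranked from 0 to 100 among these sites in each list, which makes ranks comparable between lists of unequal length. Spearman's rho between the scores was 0.83 over these 57769 sites, which share the line, the antibody and the genome. The SD of the rank difference was 3.97 points in the highest decile of GSK2879552 scores, 18.8 in decile 5 and 16.9 in the lowest. GSK2879552 scores ran from 747 to 3130 in the highest decile and from 190 to 232 in decile 5. A given difference in score therefore spans more ranks in decile 5, and no rank can pass 100. The part of this scale in the smaller SD was not tested. When only these matched sites were ranked, the 1000 highest scores of each list had 729 sites in common, and the 100 highest had 59. The highest combination scores were at chr18:70856792-70857420 (3780, against 3090 with GSK2879552) and chr17:5135439-5135958 (3638 against 3130). They were followed by chr1:147084109-147084699 (3492), chr8:71863464-71864102 (3471) and chr9:89019955-89020584 (3467). These 5 sites were FOXA1 peaks in all 3 CWR22-Rv1 lists and with DMSO.

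**Figure D3:**
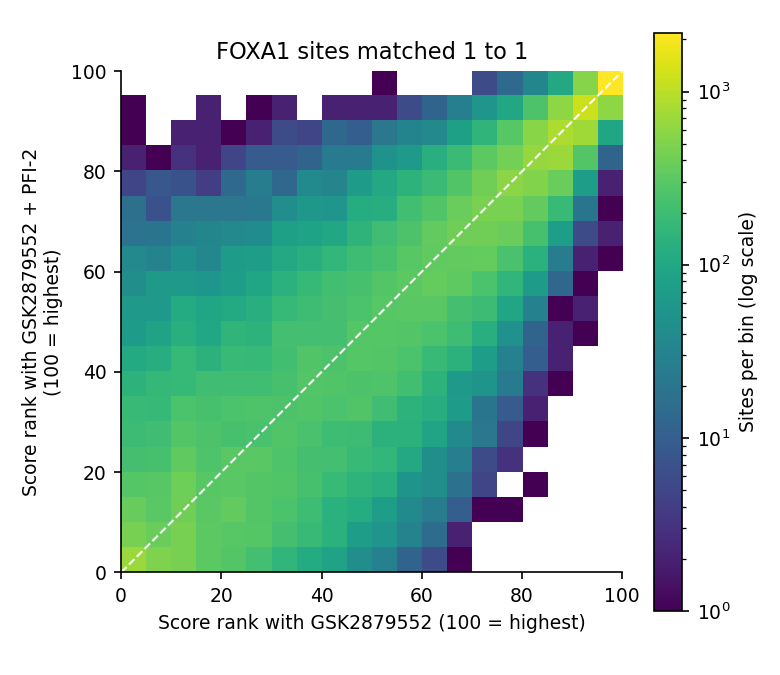
FOXA1 sites matched 1 to 1 are binned by score rank with GSK2879552 (x axis) and with GSK2879552 plus PFI-2 (y axis), with 100 the highest rank, the number of sites per bin on a logarithmic colour scale and the line of equal ranks dashed. The 57769 sites narrow toward equal rank at the upper end (SD 3.97 points in the highest decile) and spread widely below. Scores lie farther apart at the upper end and no rank can pass 100, and the part of this in the narrowing was not tested.

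Peaks at the same site were wider in the combination list. Of the matched sites 94.7% were wider there and 5.16% narrower, with a median difference of 85 bp (combination minus GSK2879552). Median widths over the matched sites were 270 bp with GSK2879552 and 364 bp with the combination. The difference was present at all strengths, with medians of 78 to 96 bp across the deciles of GSK2879552 scores. The GSK2879552 peak lay wholly inside the combination peak at 78.4% of the sites, and the midpoints were a median of 18 bp apart. In 509 cases 1 combination peak covered 2 or more GSK2879552 peaks, and the reverse occurred 19 times. Since the DMSO peaks were as wide as those of the combination, the GSK2879552 library was the one with narrow peaks among the 3 LNCaP lists. The narrowest peak was 178 bp with GSK2879552, 206 bp with the combination and 208 bp with DMSO. The part of these minimum widths in the difference was not tested.

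Some kept sites differed widely in rank. A site ranked over 50 points higher with the combination in 461 cases, or 0.798%, and over 50 points lower in 99 cases, or 0.171%. The site with the greatest excess was chr8:87849061-87849823, a 763 bp peak with a combination score of 979. With GSK2879552 it was a 180 bp peak with a score of 78, and its rank was 88.9 with the combination and 1.43 with GSK2879552. Next were chr8:29184496-29185228 (ranks 91.7 and 4.72) and chr11:75206442-75206957 (84.6 and 2.28). Then came chr5:54506816-54507586 (83.4 and 2.28) and chr11:89382847-89383284 (77.8 and 0.175). All 5 were DMSO peaks, at percentiles 75.1 to 91.2 of the DMSO list. For scale, 99.8% of all kept combination peaks of score decile 7 were DMSO peaks.

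In the other direction, chr5:60241531-60241963 had rank 1.86 with the combination and 67.3 with GSK2879552. It was followed by chr2:21185828-21186157 (ranks 1.28 and 64.6) and chr4:49149247-49149630 (18.6 and 80.2). The remaining named sites of this kind were chr7:22369482-22369699 (4.02 and 64.9) and chr4:80273558-80273870 (14.5 and 75.3). Of these 5 sites 4 were DMSO peaks, at percentiles 21.3 to 57.9, and 2 lay on SETD7 peaks of CWR22-Rv1. For scale, 63.3% of all kept combination peaks of score decile 1 and 87.2% of decile 4 were DMSO peaks. SETD7 peaks overlapped 1.76% and 1.43% of them. No artefact-prone regions were removed, and their part in the SETD7 overlaps was not tested. The named sites of both directions were picked for their rank differences, which are therefore given without a test.

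The DMSO ranks, which were not used to pick sites by rank difference, were set beside both. Over 54381 sites matched 1 to 1 in the 3 LNCaP lists, 403 ranked over 50 points higher with the combination than with GSK2879552. Their median ranks were 8.99 with GSK2879552, 67.5 with the combination and 65.6 with DMSO. The DMSO rank was nearer to that of the combination at 97.8% of them. At the 104 sites over 50 points lower with the combination, median ranks were 63.3 with GSK2879552, 10.1 with the combination and 27.1 with DMSO. DMSO was nearer to the combination at 76.0% of these. For comparison, it was nearer to the combination at 59.4% of the 28737 sites whose ranks differed by at most 10 points. Over all these sites rho was 0.91 between the combination and DMSO, 0.83 between the combination and GSK2879552, and 0.80 between GSK2879552 and DMSO.

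**Figure D4:**
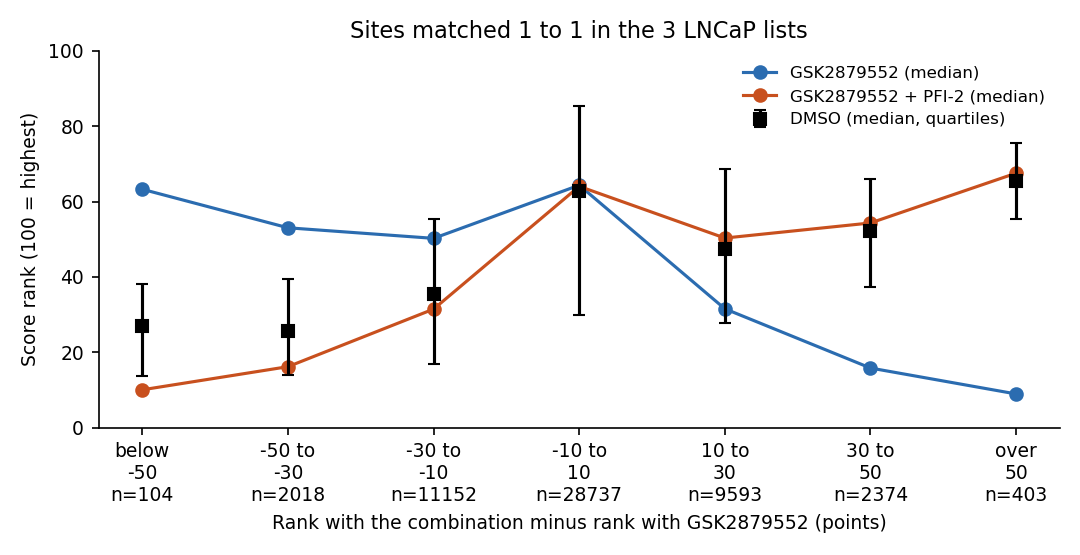
Median score ranks (y axis, 100 the highest) with GSK2879552, with the combination and with DMSO (squares, bars to the quartiles) are plotted for sites grouped by the rank difference, combination minus GSK2879552 (x axis, points), with the number of sites under each group. The DMSO medians lie nearer to the combination in the outer groups, at 65.6 against 67.5 in the group over 50 points and 27.1 against 10.1 in the group below −50, where GSK2879552 stands at 8.99 and 63.3.

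The other LNCaP comparisons were set beside this one in equal-sized lists. They share libraries with it and are not independent of it. Between GSK2879552 and DMSO, 16.3% of the GSK2879552 peaks and 17.2% of the DMSO peaks had no peak of the other list within 1 kb. For the combination with PFI-2 against GSK2879552 these shares were 16.1% and 15.2%, as above. Between the combination and DMSO they were 12.1% of the combination peaks and 12.2% of the DMSO peaks. The 2 comparisons that involve the GSK2879552 library gave higher shares than the one without it. Only the GSK2879552 list was used whole, with scores from 48, while the combination and DMSO lists were cut at 138 and 120. Absent peaks were mostly weak ones, so the comparison between the shortened lists is not like the others. The part of this cut in the difference was not tested.

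Gained sites were unevenly spread over the chromosomes. In equal-sized lists the gained share was highest on chromosome X, at 21.7% (19.8 to 23.7), and on chromosome 13, at 19.1% (17.4 to 20.9). It was lowest on chromosome 22, at 11.3% (9.24 to 13.7), and on chromosome 20, at 11.7% (10.1 to 13.5). The lost share was highest on chromosome 19, at 19.4% (17.1 to 22.0), where 12.2% of the combination peaks were gained. It was lowest on chromosome 13, at 13.7% (12.2 to 15.3). The combination list held 0.896 peaks per GSK2879552 peak on chromosome 19 and 1.05 on chromosomes 13 and X. In the lists as deposited, X also had the highest gained share, at 34.3%, and chromosome 22 the lowest, at 22.8%. The lost order was different there: X had the highest lost share, at 9.06% (7.75 to 10.6), ahead of chromosome 19 at 8.81% (7.19 to 10.7), and chromosome 14 had the lowest, at 6.10% (5.17 to 7.18). These intervals of X and chromosome 19 overlap. On X 36.2% of the lower-scoring 50% of combination peaks were gained (33.2 to 39.2) and on the autosomes 30.4% (29.9 to 30.9), in equal-sized lists. In the higher-scoring 50% the shares were 1.96% (1.17 to 3.27) and 1.62% (1.48 to 1.76), with intervals that overlap. DNA content and copy number along the chromosomes were not analysed here, and their part in these differences was not tested.

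**Figure D5:**
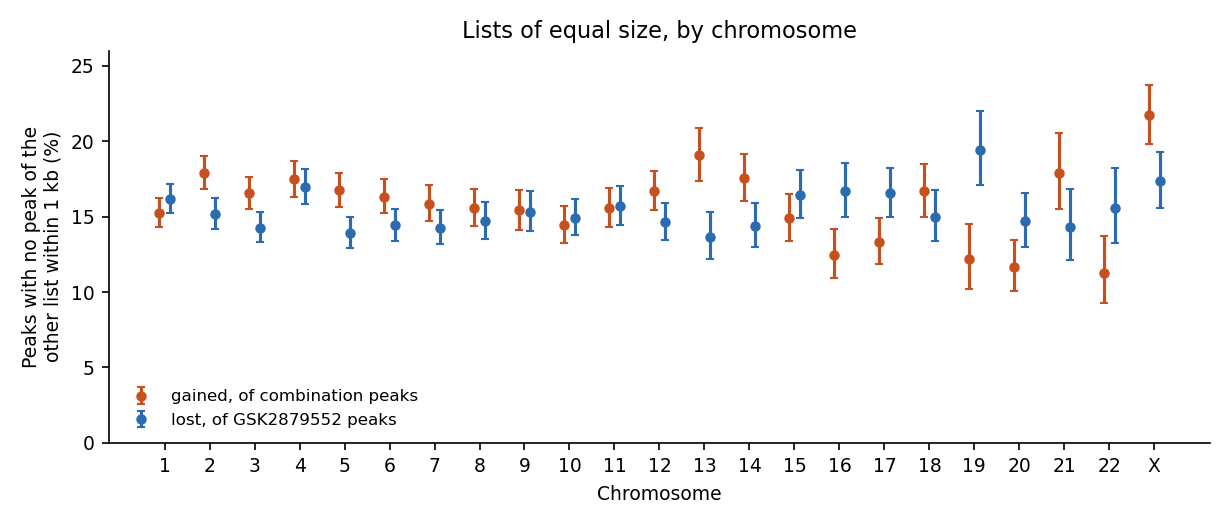
For equal-sized lists, the percentage of combination peaks gained and of GSK2879552 peaks lost (y axis) is plotted for each chromosome (x axis) with 95% Wilson intervals. Chromosome X has the highest gained share, 21.7%, chromosome 22 the lowest, 11.3%, and chromosome 19 the highest lost share, 19.4%.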

How the data were processed

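Chromatin immunoprecipitation sequencing gave 1 peak list per library. The submitters' processing notes name MACS2 2.1.4, BWA 0.7.17-r1188, SAMtools 1.9, FastQC 0.11.9 and build hg19, without roles. For the deposited score, the peak threshold and any input control, the authors' settings were not given in the sources used here. Groups came from sample titles, with 1 library each, so no test between conditions was made.

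Chromosomes other than 1 to 22 and X were left out (351 GSK2879552 and 481 combination peaks). The 64217 highest scores were taken from each whole list, with 270 combination peaks tied at the boundary score of 138 taken in genome order. Starts are printed 1-based. Intervals are 95% Wilson intervals. The overlap code was checked against bedtools 2.31.1 and tested on simulated data. Named sites were the 10 gained and 10 lost peaks of highest score, 5 kept sites of highest combination score, and 5 matched sites with the greatest rank difference in each direction. Members and classes were chosen with earlier results of these data known. Planned gene and motif counts were not run, as no hg19 reference was used here. Alternatives were other overlap and distance rules, fixed peak width and shorter lists. Software was matplotlib 3.10.9, scipy 1.17.1, pandas 2.3.3, numpy 2.4.6 and Python 3.11.15.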

Additional observations from a re-analysis of the deposited data

How the results depend on the processing

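Of 38 alternatives over 6 shares, 8 stayed inside the interval of the reported share and 30 did not. Under reciprocal 50% overlap, 200 bp about each midpoint, equal-sized lists, the higher-scoring 50% of each list and the 20000 highest scores of each list, GSK2879552 peaks kept (92.1%) came to 86.4%, 91.0%, 83.5%, 92.5% and 82.4%. Combination peaks kept (70.0%) came to 66.2%, 69.6%, 82.7%, 70.6% and 82.2%. Combination peaks gained (28%) came to 23.8% with 5 kb, 30.04% with no overlap in place of 1 kb, 16.1% with equal-sized lists, 28.5% in the higher-scoring 50% and 17.4% for the 20000 highest scores. GSK2879552 peaks lost (7.02%) came to 5.44%, 7.93% and 15.2% under the first 3 of these and to 17.2% for the 20000 highest scores. Gained peaks found with DMSO (62.4%) came to 60.0% with reciprocal overlap, 60.5% with equal-sized lists, 65.7% in the higher-scoring 50%, 67.9% for the 20000 highest scores and 80.05% with the combination shortened and the DMSO list whole. Lost peaks found with DMSO (35.3%) came to 33.7%, 30.6%, 31.9%, 25.7% and 53.4% under these, and to 37.3% with 5 kb. The last alternative with the whole DMSO list was chosen after seeing the data. A looser distance rule or a shorter list moves such a share through its own construction. For the rest the cause was not tested. Peaks absent from a shortened list can be present in the whole one. Depth, unknown here, limits all 6 shares. No paired analysis was possible because each group has 1 library. Alternatives for gene lists and motifs were not run.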

Other observations

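The surroundings of gained FOXA1 sites were described by distances and runs. A gained peak lay a median of 16.2 kb from the nearest kept combination peak (midpoint to midpoint), and kept peaks lay a median of 14.7 kb from one another. Gained peaks had to lie over 1 kb from any GSK2879552 peak, and kept combination peaks overlap such peaks. The rule itself thus holds gained peaks apart from kept ones, so these distances cannot be set against each other. Consecutive gained peaks with no other combination peak between them formed 16075 runs, of which 11173 were single peaks and 169 held 5 or more. Since 28% of all combination peaks were gained, runs would also form without any clustering, and clustering was not tested. The longest runs held 11 gained peaks each, at chr2:141432671-142094774, where 5 of them were found with DMSO, and at chr3:82390536-83161043, where 9 were. Lost peaks formed 1 run of 5 or more, at chrX:154871232-155049790, and 2 of its 5 peaks were found with DMSO.

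Over 1431 windows of 1 Mb with at least 30 combination peaks, the gained share had a median of 26.8% and ran from 4.65% to 63.9%. The highest share was on chromosome 7 from 109 to 110 Mb, where 23 of 36 combination peaks were gained and the GSK2879552, combination and DMSO lists held 14, 36 and 28 peaks. On chromosome 2 from 140 to 141 Mb 19 of 32 were gained, and the lists held 13, 32 and 32 peaks. The lowest share was on chromosome 1 from 120 to 121 Mb, with 2 of 43 peaks gained and 45, 43 and 42 peaks. These windows are the extremes of many and were chosen after their values were seen. Matched sites of chromosome 19 had a median rank difference (combination minus GSK2879552) of -3.43 points, and those of chromosome 13 of 0.569 points, the ends of the range over 23 chromosomes.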
